A study of Mus musculus with 136 samples.

Results

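The genes described here encode secreted proteins of saliva, together with epidermal growth factor. They are Bpifa2, Pip, Prol1, Mucl2, Scgb2b27, Egf, Wfdc2, Car6 and Mup5. All probes annotated to these 9 genes on the Illumina MouseRef-8 array were taken, which gave 13 probes of the 25697 on the array and 9 of its 16593 genes. The genes had been chosen by their measured differences between 131I and saline in the thyroid samples, so that their thyroid values are a description and carry no test. RNA was measured in the thyroid, spleen, lungs, liver, kidney cortex and kidney medulla of BALB/c nude mice (strain CAnN.Cg-Foxn1nu/Crl), all 9-month-old females, which were killed 24 h after an injection into the tail vein at 9:00, 12:00 or 15:00. The injection held either 90 kBq 131I in physiological saline or saline alone, and every time of day had its own saline group. Nude mice lack a thymus and so most T cells, and this holds for all groups. The 22 mice gave 130 replicates, 71 with 131I and 59 with saline, and 6 arrays were repeats of a replicate. In the thyroid there were 21 replicates: 4 with 131I and 4 with saline at 9:00, 3 and 3 at 12:00, and 4 and 3 at 15:00. Each experimental group had its own cage, so that cage and group cannot be told apart.

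Saliva is made by the acinar cells of the parotid, submandibular and sublingual glands and is modified in their ducts. In the mouse, the granular ducts of the submandibular gland, which lies in the neck close to the thyroid, store growth factors and kallikreins for secretion. Among the genes, Bpifa2 encodes parotid secretory protein of the BPI fold family. Pip encodes prolactin-induced protein, Prol1 and Mucl2 encode mucin-like proteins, and Scgb2b27 encodes a subunit of androgen-binding protein of the secretoglobin family. Car6 encodes the secreted carbonic anhydrase of saliva, Wfdc2 encodes a secreted protein with WAP domains, and Mup5 encodes a major urinary protein, a lipocalin that carries small ligands. Egf encodes the ligand of the receptor EGFR, and the tubule of the kidney makes it as well as the submandibular gland.

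Positions of the genes are those of the mouse genome build GRCm38.p6. Bpifa2 lies at chr2:154008276-154016073, Wfdc2 at chr2:164562715-164568510, Pip at chr6:41847549-41852065, Prol1 at chr5:88317312-88328817 and Mucl2 at chr15:103895855-103899312. Scgb2b27 lies at chr7:34011919-34013942, Egf at chr3:129677574-129755322, Car6 at chr4:150187015-150201135 and Mup5 at chr4:61831319-61858043. A promoter was found for 8 of the 9 genes in RefSeq and for Mup5 none was listed. The 120 bases directly upstream of the start are shown, from 5′ to 3′ on the strand of the gene, for 5 genes, of which Bpifa2, Pip and Mucl2 had signal mainly in the thyroid samples and Egf and Wfdc2 in other tissues too. They lie at chr2:154008156-154008275 (plus strand, Bpifa2), chr6:41847429-41847548 (plus, Pip), chr15:103899313-103899432 (minus, Mucl2), chr3:129755323-129755442 (minus, Egf) and chr2:164562595-164562714 (plus, Wfdc2). Capitals mark a TATA box TATAAA or the steroid receptor site TGTTCT, read on either strand.
Bpifa2: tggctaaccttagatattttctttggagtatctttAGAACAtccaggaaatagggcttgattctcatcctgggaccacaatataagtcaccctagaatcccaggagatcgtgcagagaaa
Pip: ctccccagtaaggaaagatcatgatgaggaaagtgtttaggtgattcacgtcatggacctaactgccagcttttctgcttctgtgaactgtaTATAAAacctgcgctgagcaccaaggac
Mucl2: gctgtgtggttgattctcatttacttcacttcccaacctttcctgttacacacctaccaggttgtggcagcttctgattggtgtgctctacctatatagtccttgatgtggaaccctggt
Egf: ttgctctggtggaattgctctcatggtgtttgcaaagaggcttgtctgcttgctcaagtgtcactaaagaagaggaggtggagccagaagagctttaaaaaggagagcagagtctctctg
Wfdc2: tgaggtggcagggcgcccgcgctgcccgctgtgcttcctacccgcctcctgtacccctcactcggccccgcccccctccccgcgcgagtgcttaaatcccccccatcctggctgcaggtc

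Motifs were searched on both strands in the 300 bases from 250 before to 50 after each start. Egf and Wfdc2 each had a second promoter listed, and a gene was counted if any of its promoters held the motif. The shares over all are per promoter. TATAAA was found for 2 of the 8 genes and in 13.6% of all 32851 promoters of this length. In Pip it lay 28 bases before the start on the strand of the gene and again 225 bases before it on the opposite strand, and in Scgb2b27 on the opposite strand within the transcribed part. The site TGTTCT, which androgen and glucocorticoid receptors bind, was found in Bpifa2 and Pip, against 19% of all promoters. In Bpifa2 it lay 85 bases before the start on the opposite strand, and in Pip 190 bases before the start on the opposite strand and once more within the transcribed part. The full androgen and glucocorticoid response element, which holds this site on both strands with 3 bases between, was found for 0 of 8 genes and in 0.00913% of all promoters. The E-box of clock proteins, CACGTG, was found in Car6 149 bases before the start and in 7.15% of all promoters. The D-box TTATGTAA was found for 0 of 8 genes and in 0.938% of all promoters. A match gives only the letters in the window.

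Levels are given as log2 intensities after background correction and quantile normalization within a tissue, and 1 unit is a 2-fold difference. A probe was above background where its detection p-value was under 0.01. Between 34.7% and 51.9% of the probes of an array were above background. In the thyroid the lowest signal above background lay between 4.91 and 5.41 over the arrays and the highest level on the scale was 14.86. Of the 13 probes, 1 of the 3 Mup5 probes was not above background on any array of any tissue, and it is left out of the counts. The other 12 probes were among the 12144 probes tested in the thyroid. Prol1, Wfdc2 and Mup5 have a pair of probes each, called first and second here. No probe sequences were used here, so that a signal of Scgb2b27 or Mup5 could come in part from near-identical genes of their families.

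The samples labelled thyroid were set against marker lists. Of 12 follicular cell genes on the array, 8 were not above background on any of the 23 thyroid arrays: thyroglobulin (Tg), the iodide carrier Slc5a5, Pax8, Foxe1, Slc26a4, Duox2, Dio1 and Iyd. The transcription factor Nkx2-1 was above background on 1 array, the receptor Tshr on 17, and Hhex and Cpq on all 23. All 6 genes of C cells and the parathyroid lay in the background on every array. In contrast, 8 of 9 fat genes were above background on every array. Skeletal muscle genes split the replicates. Their mean level was between 10.77 and 12.66 (18 to 19 of 20 genes above background) in 5 replicates, namely 131I 9:00 replicates 2, 3 and 4, 131I 15:00 replicate 2 and saline 15:00 replicate 1. In the other 16 replicates it was between 4.81 and 5.48 (3 to 5 of 20 genes). In bulk tissue, fewer cells of a type and less RNA per cell cannot be told apart. The p-values and SE below rest on the spread between replicates, estimated jointly over all 6 groups of a tissue. In the thyroid this joint spread includes groups of 12:00 and 15:00 that held both high and low levels. It is therefore not the spread within the 9:00 groups.

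In the thyroid samples the 12 probes were high or at background together in most replicates, and Egf, Wfdc2, Car6 and Bpifa2 had intermediate levels in some. At least 8 of the 12 probes were above background in 11 replicates, and in the other 10 replicates between 0 and 4 were. The high replicates were all 4 of saline 9:00, all 3 of 131I 12:00, saline 12:00 replicate 3, 131I 15:00 replicates 1 and 3, and saline 15:00 replicate 3. Of the 10 low replicates 5 were those with muscle genes and 5 were not. None of the 11 high replicates had 15 or more muscle genes above background.

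**Figure D1:**
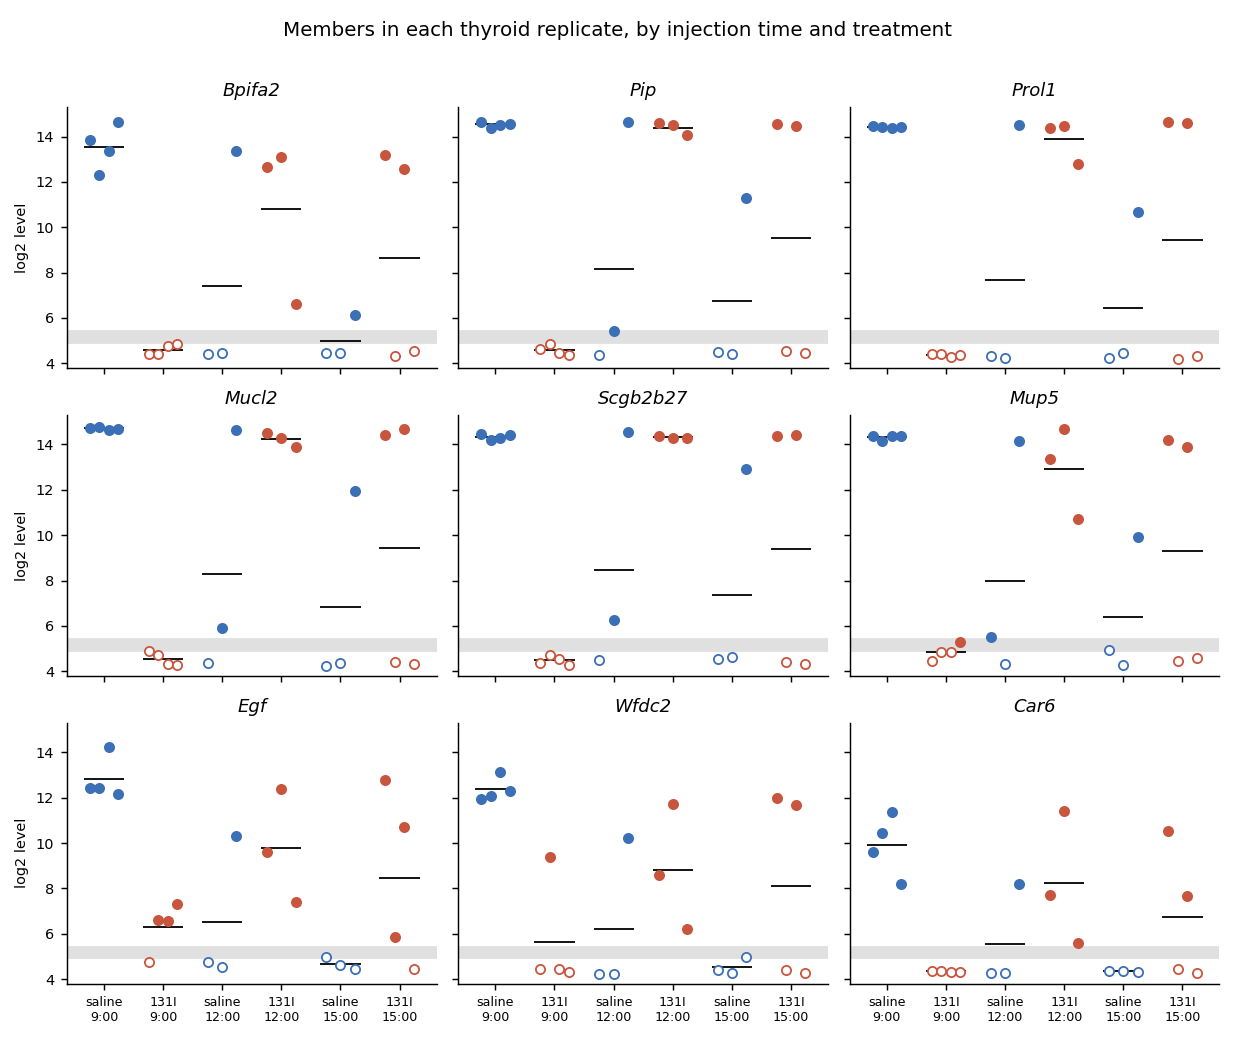
Level of each gene in every thyroid replicate (log2 intensity, y axis) by injection time and treatment (x axis), with filled points above background, open points not above background, bars for group means and a grey band from 4.91 to 5.41 for the lowest signal above background over the arrays. All 4 saline 9:00 replicates lie above all 4 131I 9:00 replicates in each panel, whereas the groups of 12:00 and 15:00 overlap.

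Pip, a small protein of saliva and tears, had saline 9:00 levels of 14.66, 14.38, 14.53 and 14.55, and 131I 9:00 levels of 4.64, 4.86, 4.45 and 4.35, which were all in the background. The groups lay apart by about the whole range of the scale. At 12:00 Pip was 14.61, 14.51 and 14.07 with 131I and 4.37, 5.43 and 14.66 with saline. At 15:00 it was 14.55, 4.54, 14.48 and 4.46 with 131I and 4.50, 4.43 and 11.28 with saline. At both later times a single saline replicate was high and the groups overlapped.

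Mucl2, which encodes a mucin-like secreted protein, showed saline 9:00 levels of 14.74, 14.79, 14.64 and 14.66 against 4.89, 4.71, 4.33 and 4.27 with 131I. All 4 saline replicates were near the ceiling and all 4 131I replicates were in the background. At 12:00 the 131I replicates were 14.52, 14.30 and 13.90 and the saline replicates 4.36, 5.89 and 14.63. At 15:00 Mucl2 was 14.43, 4.39, 14.66 and 4.30 with 131I and 4.22, 4.35 and 11.96 with saline. The same replicates as for Pip were high, and saline 12:00 replicate 2 was the lowest of those above background.

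Scgb2b27, the androgen-binding protein subunit, was at 14.46, 14.21, 14.28 and 14.43 with saline at 9:00 and at 4.37, 4.69, 4.56 and 4.28 with 131I. Again the groups did not overlap. At 12:00 it was 14.37, 14.28 and 14.28 with 131I and 4.50, 6.26 and 14.57 with saline, and at 15:00 it was 14.38, 4.42, 14.43 and 4.31 with 131I and 4.56, 4.64 and 12.90 with saline. Saline 15:00 replicate 3 lay between the low saline replicates and the high 131I replicates of that time.

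Prol1, a proline-rich mucin of the submandibular gland, was measured by a pair of probes that gave the same picture. With the first probe the saline 9:00 replicates were 14.48, 14.43, 14.38 and 14.41 and the 131I 9:00 replicates 4.42, 4.43, 4.27 and 4.38. At 12:00 the first probe gave 14.37, 14.46 and 12.78 with 131I and 4.32, 4.24 and 14.51 with saline, and at 15:00 it gave 14.63, 4.21, 14.60 and 4.31 with 131I and 4.25, 4.44 and 10.68 with saline. The second probe of Prol1 ranged from 14.53 to 14.74 with saline and from 4.36 to 4.61 with 131I at 9:00. In contrast to Pip, Mucl2 and Scgb2b27, saline 12:00 replicate 2 had both Prol1 probes in the background.

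Mup5, the lipocalin, was measured by 2 probes above background. The first probe was at 14.79, 14.60, 14.63 and 14.74 with saline at 9:00 and at 4.40, 4.97, 4.89 and 4.42 with 131I, of which only replicate 2 was above background. The second Mup5 probe was at 14.38, 14.14, 14.37 and 14.35 with saline at 9:00 and at 4.44, 4.87, 4.87 and 5.31 with 131I, of which only replicate 4 was above background. Both probes thus put a trace of signal into a different 131I replicate. At 12:00 the second probe was 13.35, 14.70 and 10.70 with 131I and 5.49, 4.31 and 14.14 with saline. At 15:00 it was 14.18, 4.47, 13.90 and 4.60 with 131I and 4.94, 4.29 and 9.90 with saline, and the first Mup5 probe had the same replicates high.

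Bpifa2, the parotid secretory protein, had saline 9:00 levels of 13.84, 12.31, 13.36 and 14.63 and 131I 9:00 levels of 4.41, 4.39, 4.75 and 4.84. The saline levels spread more than those of Pip or Prol1, and no 131I replicate was above background. At 12:00 Bpifa2 was 12.65, 13.11 and 6.64 with 131I and 4.42, 4.44 and 13.37 with saline. At 15:00 it was 13.16, 4.32, 12.58 and 4.56 with 131I and 4.44, 4.45 and 6.13 with saline. In 131I 12:00 replicate 3 and saline 15:00 replicate 3, which held high Pip and Mucl2, Bpifa2 was far lower than in the other high replicates.

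Car6, the carbonic anhydrase of saliva, was at 9.60, 10.45, 11.36 and 8.18 with saline at 9:00 and at 4.36, 4.35, 4.31 and 4.33 with 131I. All 4 131I replicates lay in the background. At 12:00 it was 7.70, 11.39 and 5.57 with 131I and 4.25, 4.28 and 8.18 with saline, and at 15:00 it was 10.54, 4.43, 7.65 and 4.26 with 131I. With saline at 15:00 Car6 was 4.34, 4.37 and 4.33, so that replicate 3, where Pip was 11.28, had no Car6 above background.

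Egf, the growth factor, was at 12.41, 12.43, 14.25 and 12.16 with saline at 9:00 and at 4.77, 6.60, 6.55 and 7.31 with 131I. The groups did not overlap, but the 131I replicates 2, 3 and 4 were above background, and these are the replicates with 19 of 20 muscle genes above background. Whether the muscle genes had a part in this was not tested. At 12:00 Egf was 9.61, 12.38 and 7.41 with 131I and 4.78, 4.52 and 10.32 with saline. At 15:00 it was 12.79, 5.87, 10.70 and 4.43 with 131I and 4.96, 4.63 and 4.43 with saline. The 131I 15:00 replicate at 5.87 was one with muscle genes. Saline 15:00 replicate 1, also one with muscle genes, had Egf in the background at 4.96. In saline 15:00 replicate 3 Egf was in the background while Pip was at 11.28.

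Wfdc2, the WAP protein, was at 11.94, 12.09, 13.15 and 12.31 on its first probe with saline at 9:00 and at 4.45, 9.40, 4.43 and 4.33 with 131I. The second probe of Wfdc2 was at 8.63, 8.34, 10.13 and 9.19 with saline and at 4.47, 5.97, 4.33 and 4.39 with 131I. Both probes were thus above background in 131I 9:00 replicate 2 and in no other 131I replicate of that time. In this replicate 4 of 14 genes of cartilage and airway epithelium were above background (mean level of 3 tested genes 6.03), against 0 to 1 of 14 in the other 131I 9:00 replicates (4.53 to 4.63). Their part in the result was not tested. At 12:00 the first Wfdc2 probe was 8.57, 11.71 and 6.22 with 131I and 4.23, 4.21 and 10.22 with saline, and at 15:00 it was 12.00, 4.41, 11.69 and 4.27 with 131I and 4.40, 4.29 and 4.97 with saline.

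The comparison of 131I with saline asks how the genes responded to 131I at each time of day. At 9:00 all 12 probes were regulated (limma, fold-change of at least 1.5 with an adjusted p-value under 0.01), all of them down, where 8.05% of the 12144 tested probes were regulated down and 12.3% in either direction. In all 12 the groups did not overlap, as in 15.7% of all tested probes with lower 131I values. Since these values chose the genes, nothing is read from the counts. Where all 131I replicates lay in the background, the fold-change is a lower bound. Mucl2 was at least 839-fold lower with 131I, Prol1 at least 689-fold and 801-fold lower on its 2 probes, Pip at least 742-fold lower, Scgb2b27 at least 652-fold lower, Bpifa2 at least 372-fold lower and Car6 at least 29.9-fold lower. For the others the log2 difference, 131I minus saline, was -10.02 (SE 2.34) and -9.44 (SE 2.17) for the 2 Mup5 probes, -6.72 (SE 1.76) and -4.28 (SE 1.02) for those of Wfdc2, and -6.50 (SE 1.53) for Egf. Among the 12 differences Wfdc2 on its second probe was the smallest.

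Skeletal muscle genes moved with this comparison: 3 of the 4 131I 9:00 replicates had a muscle mean of 12.40 to 12.66, and the 4 saline replicates 4.81 to 5.25. Their part in the result was not tested. The remaining 131I replicate, replicate 1, had a muscle mean of 5.48 with 5 of 20 genes above background. In this replicate 0 of the 12 probes were above background, so that only bounds can be given: against the saline mean they were at least 16.6-fold (Wfdc2, second probe) to 828-fold (Mucl2) lower. Without the 5 replicates with muscle genes, a setting added after the data had been seen, that single 131I replicate is left at 9:00. The same bounds hold. A test then has to assume that the lone replicate varies like the other groups, so that no count is given here. With any one of the 4 131I or 4 saline replicates of 9:00 left out, between 0 and 7 of 12 probes were regulated, with measured log2 differences of -10.27 to -3.92 throughout.

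**Figure D2:**
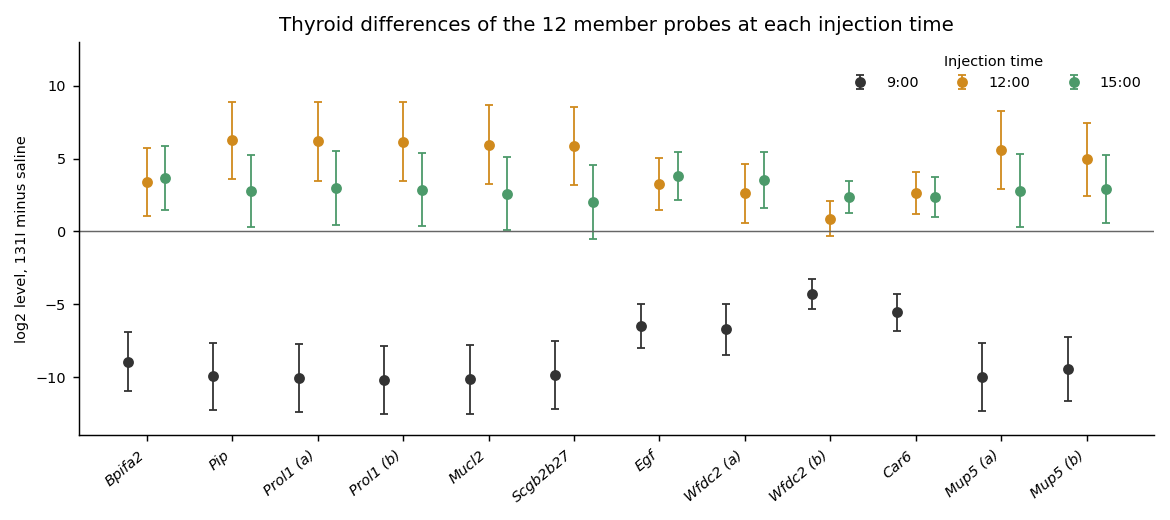
Log2 difference, 131I minus saline, in the thyroid samples (y axis) of the 12 probes (x axis) by injection time, as measured also where a group lay in the background, with bars for ± SE and (a) and (b) for the first and second probe. All points of 9:00 lie between -10.18 and -4.28, and all points of 12:00 and 15:00 lie between 0.88 and 6.25.

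At 12:00 and 15:00 none of the 12 probes was regulated, as 0% of all tested probes at either time, and 5 and 2 of them had an unadjusted p-value under 0.05 (3.26% and 12.5% of all). The log2 differences were positive. At 12:00 they were 6.25 (SE 2.64) for Pip, 6.18 (SE 2.71) for Prol1 on the first probe, 5.95 (SE 2.70) for Mucl2, 5.87 (SE 2.70) for Scgb2b27 and 5.59 (SE 2.70) for Mup5 on the first probe. Those of Bpifa2 (3.39, SE 2.35), Egf (3.26, SE 1.76), Car6 (2.65, SE 1.46) and Wfdc2 (2.61 and 0.88) were smaller. In 131I 12:00 replicate 3, Pip and Scgb2b27 were near the ceiling whereas Egf, Wfdc2 and Car6 were low. At 15:00 the differences were 3.65 (SE 2.20) for Bpifa2, 2.77 (SE 2.47) for Pip and 2.02 (SE 2.53) for Scgb2b27. For Egf and Wfdc2 no fold-change is given at 15:00, since none of the 3 saline replicates had them above background and only 3 of 4 and 2 of 4 131I replicates did. These means joined high and low replicates of a group, and the ranges of 131I and saline overlapped in 12 of 12 probes at both times.

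The thyroid saline groups were also set against each other by time of day. Saline values had a part in choosing the genes, so that these comparisons are a description. Nothing is read from their counts. Saline 15:00 was lower than saline 9:00 in all 12 probes, with no overlap between the groups (17.4% of all tested probes were lower without overlap), and 5 probes of 4 genes were regulated, where 11.6% of all were. Egf was at least 197-fold lower at 15:00, Wfdc2 at least 146-fold and 14.8-fold lower on its 2 probes and Car6 at least 26.2-fold lower, and Bpifa2 fell by 8.53 on the log2 scale (SE 2.20). Pip (-7.80, SE 2.47), Mucl2 (-7.86, SE 2.53) and Scgb2b27 (-6.98, SE 2.53) did not pass, with saline 15:00 replicate 3 far above the other replicates of its group. Saline 12:00 was lower than saline 9:00 in all 12 probes, from -6.89 for Mup5 on the first probe to -3.80 for Wfdc2 on the second, and 5 probes did not overlap (16.4% of all). None of the 12 was regulated, where 0.412% of all probes were. Between saline 15:00 and saline 12:00 none was regulated, where 0% of all probes were. Fat genes moved with the time of day: their mean was 8.42 to 9.64 in saline 9:00, 10.14 to 10.47 in saline 12:00 and 10.13 to 10.67 in saline 15:00, and saline 15:00 replicate 1 was one with muscle genes (10.77, 18 of 20 above background). Their part in these differences was not tested. The comparisons of 9:00, 12:00 and 15:00 share these saline groups, and their values are set side by side only.

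Other genes of the salivary glands were read from a list of 33 genes on the array, of which 24 passed the filter. Of the 33, 8 were not above background on any of the 23 thyroid arrays: Smr2, Smr3a, Dcpp2, Dcpp3, Prb1, Prh1, Prpmp5 and Gjb1. At 9:00, 20 of the 24 were regulated, all down, where 8.05% of all tested probes were. The lists here and below were chosen with earlier results of these data known. Many of the 24 genes passed the filter only through the replicates in which they were high. Nothing is therefore read from the thyroid counts of these lists. In 18 of the 24 a group lay in the background on all its arrays, and the median log2 difference was -8.19, or -7.65 with these genes at their bound, against 0.08 over all tested probes. The kallikreins, proteases of the granular ducts, were among those in the background in all 131I replicates: Klk1b27 was at least 863-fold lower, Klk1 at least 720-fold and Klk1b5 at least 676-fold lower. Bhlha15, a transcription factor of acinar cells, was at least 58-fold lower and lactoperoxidase Lpo at least 28-fold lower. The androgen-binding protein subunits Scgb1b27 (-10.01) and Scgb2b26 (-9.89) and the water channel of acinar cells, Aqp5 (-6.18), were also down, each with 1 of 4 131I arrays above background. Not passing were Muc19 and Smgc, which share 1 probe (at least 217-fold lower), Dcpp1, which was above background on a single saline array of 9:00, and the amylase Amy1 (0.83). At 12:00 and 15:00, 0 of 24 were regulated and the medians were 3.64 and 3.42 (3.13 with 12 genes at their bound).

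Many of the 24 salivary genes passed the filter only through the high replicates, so that their mean level by replicate is a description only. It was 11.65 to 13.07 in saline 9:00 and 4.88 to 5.18 in 131I 9:00, and over all replicates 6.57 to 13.07 in the 11 high and 4.83 to 5.18 in the 10 low ones. The lowest of the high replicates was saline 15:00 replicate 3 (6.57, 11 of 33 genes above background). The fat genes were expressed throughout, with a mean of 8.42 to 10.23 in the high and 9.67 to 10.67 in the low replicates. At 9:00 their means did not overlap, with 9.67 to 10.31 in 131I and 8.42 to 9.64 in saline. The part of fat in the result was not tested.

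**Figure D3:**
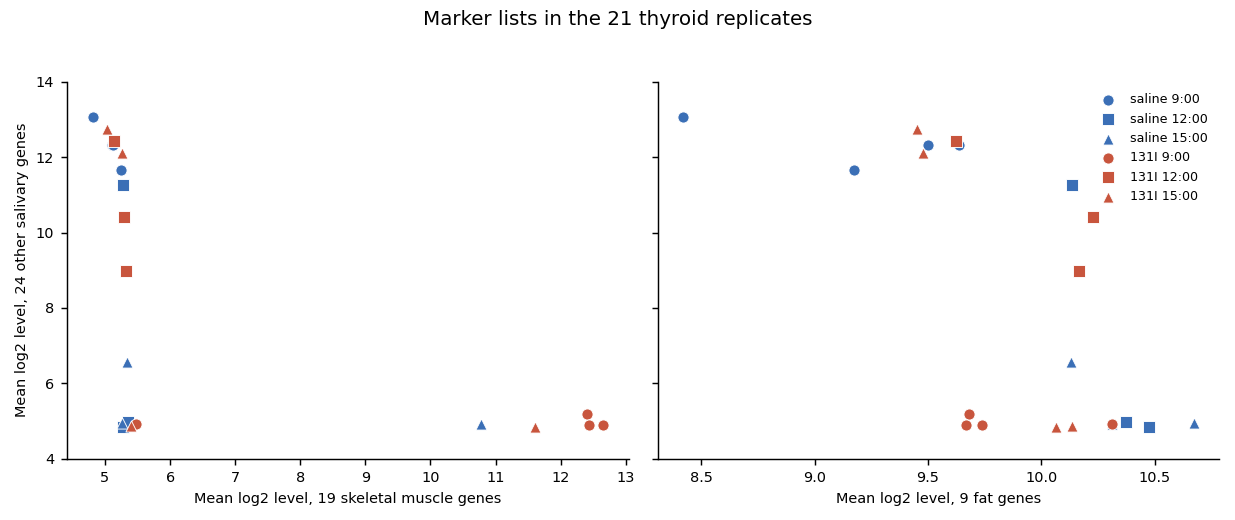
Mean level of 24 other salivary gland genes (log2 intensity, y axis) against the mean of 19 skeletal muscle genes (left, x axis) and of 9 fat genes (right, x axis) in the 21 thyroid replicates. Replicates with a muscle mean of at least 10.77 have a salivary mean of at most 5.18, and low salivary means occur also at muscle means of 5.26 to 5.48.

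Skeletal muscle genes moved the other way at 9:00: 8 of 19 were regulated up (4.26% of all tested probes) and 0 down, with a median of 6.19, or 5.50 with 14 genes at their bound. Among them were Mb (6.19) and Des (4.16), above background in every replicate of 9:00, and Actn2, in the background with saline and at least 20.3-fold higher with 131I. Myh4, which passed, and the calcium pump Atp2a1, which did not, were above background in 3 of 4 131I replicates and in no saline replicate. Many of the 19 muscle genes passed the filter only through the replicates with muscle genes, most of which were 131I 9:00 replicates. Nothing is read from the count of 8. The 3 tested follicular cell genes were not regulated (Tshr 0.44, Hhex 0.28, Cpq 0.22), nor were the 9 fat genes (median 0.64).

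The pathway around Egf and the machinery of secretion were read from lists. Of 10 tested genes of the EGF family (ligands, receptors and shedding) 0 were regulated at 9:00, with a median of -0.02. The ligand Btc (1.05), the feedback inhibitor Errfi1 (-0.82) and the receptor Egfr (-0.75) did not pass. Of 13 tested genes of the secretory pathway 9 were regulated at 9:00, all down, where 8.05% of all tested probes were, with a median of -1.13 (-0.96 with 3 genes at their bound). The epithelial transcription factor Spdef (at least 3.40-fold lower), the factor of secretory cells Xbp1 (-1.63), the chaperones Creld2 (-1.66), Dnajc3 (-1.48), Hsp90b1 (-0.96) and Pdia4 (-0.88), Creb3l1 (at least 1.54-fold lower), Ssr4 (-1.13) and the translocon subunit Sec61b (-1.36) were down. Hspa5 (-0.24), Pdia6 (-0.02), Spcs2 (-0.84) and Agr2, above background on a single saline array of 9:00, did not pass. At 12:00 and 15:00, 0 of 10 and 0 of 13 were regulated.

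Relatives of the members by protein family were regulated in part. Of 14 tested relatives, 6 list entries were regulated down and 1 up at 9:00, where 8.05% and 4.26% of all tested probes were, with a median of -1.19. Down were Scgb1b27 and Scgb2b26, also on the salivary list, the WAP genes Wfdc12 (-9.26) and Wfdc18 (at least 105-fold lower, listed also under its older symbol Expi with the same probe) and the lipocalin Mup20 (-5.07). The WAP gene Wfdc1 was up, above background in 3 of 4 131I replicates and in no saline replicate. Mup2, a relative of Mup5, did not differ by more than its error (0.01, SE 0.81), and Slpi (-1.13) and Lcn2 (-1.24) did not pass.

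Over the 21 thyroid replicates the 12 probes were related to each other with Pearson's r of at least 0.76 in 66 pairs (median 0.92). The replicates form high and low clusters and all values come from the same arrays, so that these r are a description. The genes outside the set most like Pip, Mucl2, Scgb2b27 and Prol1 were Scgb1b27, Scgb2b26 and Klk1 (r of at least 0.98). Those most like Bpifa2 were 2310057J18Rik (0.99), Wfdc18 (0.98) and Wfdc12 (0.98). Egf had Fxyd2 (0.98), Csprs (0.98) and Mup20 (0.98), and Car6 had Scgb2b26 (0.99), Herc2 (0.99) and Klk1b24 (0.98). Wfdc2 had the keratin Krt14 (0.99), Nipal2 (0.97) and Aqp5 (0.97) on its first probe and Krt7 (0.99), Tmprss2 (0.99) and Rab25 (0.99) on its second. Mup5 had Klk1 (0.99), Klk1b5 (0.99), Scgb2b26 (0.99) on its first probe and Klk1b27 (0.99) in place of Scgb2b26 on its second. By Spearman's rho, 9 of the 12 probes shared none of their 3 nearest genes with this list.

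Across tissues the genes fell into those with signal in the thyroid samples only and those with a tissue of their own. For this comparison the levels were put on a scale common to all arrays. Outside the thyroid samples Bpifa2 and Car6 were not above background on any of 113 arrays. Pip, Prol1, Mucl2 and Scgb2b27 were above background on 1 of these arrays, kidney cortex saline 15:00 replicate 3, at 6.47 for Pip, 5.97 and 6.20 for Prol1, 7.06 for Mucl2 and 6.87 for Scgb2b27. Of the 33 other salivary genes, 14 were above background on this cortex array, against 11 to 14 in the other cortex replicates. The mean of the 12 tested genes, 9.29, lay within the range of the others (8.94 to 9.54). It holds Klk1, Klk1b5, Klk1b27 and Cldn10, which were above background on all 22 cortex arrays. Scgb1b27 was above background on this cortex array only. Scgb2b26 and the probe of Muc19 and Smgc were above background on it too, with no probe above on more than 2 of 22 cortex arrays. Aqp5, Bhlha15 and Lpo were not above background on it. Kidney tubule genes there (8 of 9 above background) were as in the other cortex replicates (7 to 8 of 9).

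Egf was highest in the kidney, with 13.49 ± 0.21 (SD, n = 21) in the medulla and 13.47 ± 0.21 (n = 22) in the cortex, and was above background on every kidney array. These neighbours did not differ beyond their spread. The thyroid samples followed with 8.70 ± 3.43 (n = 21; 16 of 23 arrays above background), and in the spleen (median 5.13, 11 of 23 arrays), liver (4.91, 2 of 23) and lungs (4.74, 3 of 22) most arrays were in the background, so that no order is read among these. The ranges of the thyroid samples and of these 3 tissues overlapped. Spleen 131I 12:00 replicate 1 stood apart with Egf at 13.36. The same spleen replicate had Wfdc2 at 14.06 and 10.99, and 8 of 9 kidney tubule genes were above background, against 1 to 2 in the other 21 spleen replicates. Its lymphocyte genes had a mean of 8.5, against 9.62 to 10.70 in the others. Lungs saline 9:00 replicate 4 had Egf at 12.08 with 7 of 9 kidney tubule genes above background, against 2 to 3 in the other 21 lung replicates. The part of these genes in the 2 Egf values was not tested, and the tests of Egf that hold them are given with and without them.

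Wfdc2 was highest in the lungs, with 14.53 ± 0.16 (n = 22) on its first probe, followed by the medulla (14.24 ± 0.12, n = 21) and the cortex (14.02 ± 0.19, n = 22). The ranges of these tissues overlapped. The liver followed with 9.10 ± 0.43 (n = 22) and was above background on all 23 arrays, and the thyroid samples with 8.09 ± 3.72 (13 of 23 arrays), whose range held that of the liver. The second Wfdc2 probe gave 11.80 in the lungs, 11.43 in the medulla, 11.08 in the cortex, 6.60 in the thyroid samples and 6.12 in the liver, so that the last pair changed places. In the spleen Wfdc2 was above background on 1 of 23 arrays.

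Mup5 had a second tissue in the liver, where its second probe was at 10.93 ± 0.90 (n = 22; 23 of 23 arrays) and its first at 7.93 ± 0.92 (22 of 23 arrays). In the thyroid samples the first and second probe were at 9.59 ± 4.86 and 9.57 ± 4.49 (n = 21). The liver lay within the range of the thyroid samples on both probes. In the spleen, lungs, cortex and medulla Mup5 was not above background on any array.

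**Figure D4:**
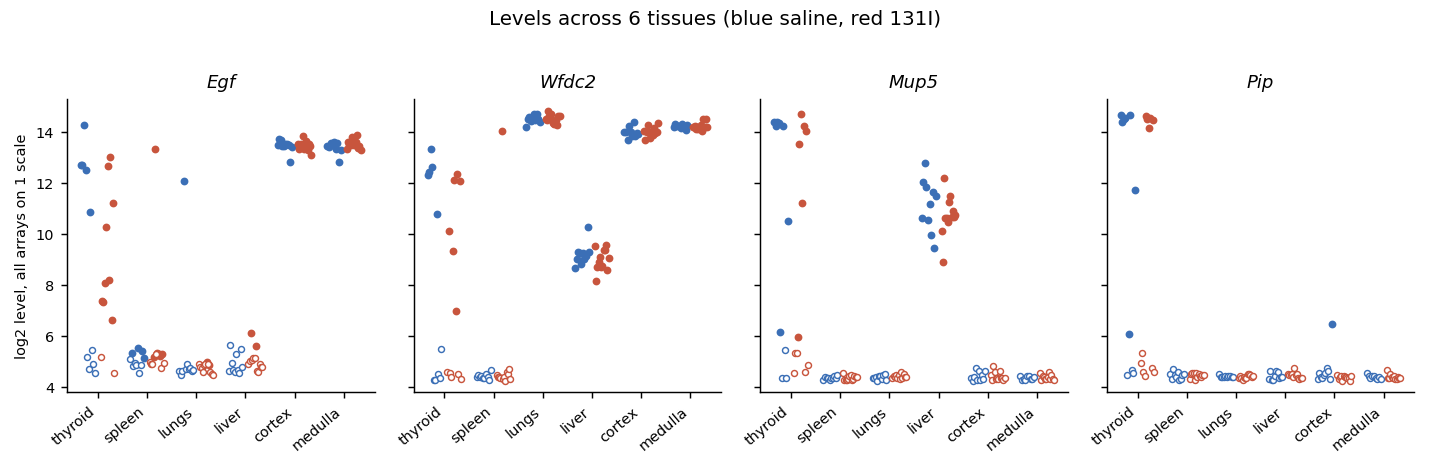
Level of Egf, Wfdc2, Mup5 (second probe) and Pip on the common log2 scale (y axis) in every replicate of the 6 tissues (x axis), saline in blue and 131I in red, with filled points above background and open points not. Egf clusters at 13.47 and 13.49 on average in the kidney parts, with single high replicates in spleen and lungs, Wfdc2 is high in lungs and kidney, Mup5 in liver, and Pip only in part of the thyroid samples and, at 6.47, in 1 cortex replicate.

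In the other tissues, whose values did not choose the genes, 131I could be tested. Egf was tested in the spleen, lungs, cortex and medulla, Wfdc2 in the lungs, liver, cortex and medulla, and Mup5 in the liver. Of 42 tests over 15 comparisons 0 were regulated in limma, 1 had an unadjusted p-value under 0.05 and the smallest adjusted p-value was 0.372. Among all tested probes 4.25% were regulated in the medulla at 12:00, 1.45% in the liver at 12:00, 0.141% in the cortex at 12:00, 0.0259% in the liver at 15:00 and 0% in the other 11 comparisons.

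Egf in the cortex was 13.51, 13.33, 13.47 and 13.53 with 131I and 13.48, 13.68, 13.64 and 13.45 with saline at 9:00, and the groups overlapped. The log2 differences of Egf in the cortex were -0.10 (95% CI -0.35 to 0.15) at 9:00, 0.04 (-0.23 to 0.31) at 12:00 and 0.10 (-0.17 to 0.37) at 15:00. In the medulla they were -0.00 (-0.27 to 0.26), 0.11 (-0.15 to 0.37) and 0.24 (-0.02 to 0.50). None of these 6 intervals reached a fold-change of 1.5 in either direction.

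In the spleen Egf at 12:00 was 13.30, 5.42, 5.47 and 5.40 with 131I and 4.94, 5.68 and 4.61 with saline, a difference of 2.32 (SE 1.18, 95% CI -0.13 to 4.78, adjusted p = 0.701, limma). Without 131I replicate 1 it was 0.35. In the lungs Egf at 9:00 was 5.21, 5.01, 4.98 and 4.74 with 131I and 4.79, 4.55, 4.79 and 12.16 with saline, a difference of -1.58 (95% CI -3.67 to 0.51, adjusted p = 0.727, limma). Without saline replicate 4, the only one of these 8 above background, it was 0.28. Apart from these replicates, all Egf values of both tissues at these times lay between 4.55 and 5.68.

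Wfdc2 was not regulated between 131I and saline in any of the 4 tissues. On its first probe the largest difference was in the liver at 15:00 (-0.47, 95% CI -1.14 to 0.20), followed by the liver at 9:00 (-0.26, -0.87 to 0.36). In the lungs it was 0.21 (-0.05 to 0.47) at 9:00, -0.08 (-0.36 to 0.20) at 12:00 and -0.05 (-0.33 to 0.23) at 15:00. In the medulla the first probe of Wfdc2 differed by -0.05 at 9:00, -0.08 at 12:00 and 0.16 at 15:00, and in the cortex by 0.02, -0.16 and 0.21. All 9 intervals of the first probe in the lungs, cortex and medulla lay within a fold-change of 1.5, and none of the 3 in the liver did. The second probe of Wfdc2 differed by -0.36 to 0.16 in the lungs, -0.28 to -0.02 in the liver, -0.21 to 0.28 in the cortex and 0.02 to 0.16 in the medulla. Its 3 intervals lay within a fold-change of 1.5 in the medulla only, and in the liver they reached from -1.12 to 0.82.

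Mup5 in the liver gave the only unadjusted p-value under 0.05. Its second probe was at 10.13, 8.74, 12.52 and 10.71 with 131I and at 10.68, 12.35, 13.14 and 12.10 with saline at 9:00. The means were 10.53 ± 1.57 and 12.07 ± 1.03 (SD), and the ranges overlapped. The difference was -1.54 (SE 0.61, unadjusted p = 0.0192, adjusted p = 0.831, limma). The first Mup5 probe at the same time differed by 0.15 (95% CI -1.11 to 1.41). At 12:00 and 15:00 the second probe differed by 0.46 (-0.91 to 1.83) and -0.12 (-1.49 to 1.25). The first Mup5 probe differed by 0.96 (-0.40 to 2.32) at 15:00, where saline replicate 2 (4.69) was not above background, and by -0.23 without this replicate.

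**Figure D5:**
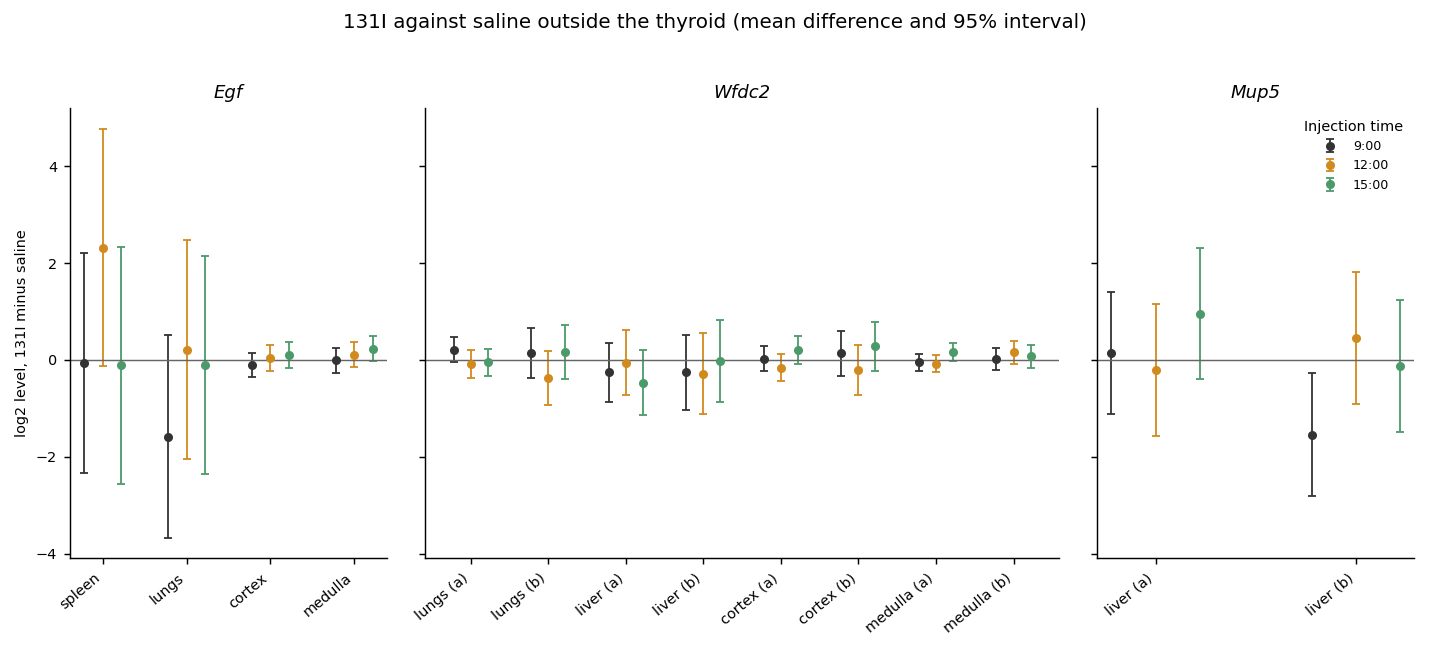
Log2 difference, 131I minus saline, with 95% confidence intervals (y axis) for Egf, Wfdc2 and Mup5 in the tissues outside the thyroid (x axis), by injection time, with (a) and (b) for the first and second probe. All intervals except that of Mup5 (second probe) in the liver at 9:00 include 0, and those of Egf are wider in spleen and lungs than in the kidney.

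Time of day was tested among the saline groups of these tissues. Of 42 tests 0 were regulated in limma, 2 had an unadjusted p-value under 0.05 and the smallest adjusted p-value was 0.280, where few of all tested probes were regulated. In the liver these were 2.03% (12:00 against 9:00), 2.88% (15:00 against 9:00) and 1.69% (15:00 against 12:00), and in the same order 0.0783%, 0.047% and 0.204% in the cortex, 0.0151%, 0.159% and 0% in the medulla, 0.00712%, 0.0854% and 0% in the lungs and 0%, 0.00758% and 0% in the spleen. Mup5 on its second probe was lower in the liver at 12:00 (10.62, 11.32 and 9.96) than at 9:00 (10.68, 12.35, 13.14 and 12.10), a difference of -1.44 (unadjusted p = 0.0406, adjusted p = 0.280, limma). Egf was lower in the cortex at 15:00 (13.50, 12.87 and 13.40) than at 9:00, a difference of -0.30 (unadjusted p = 0.0289, adjusted p = 0.429, limma). Both pairs of groups overlapped. Egf in the lungs differed by -1.56 at 12:00 and -1.71 at 15:00 from saline 9:00, and by 0.30 and 0.15 without saline 9:00 replicate 4. The F test of an unequal 131I effect at the 3 injection times called 0 of 14 combinations of probe and tissue (smallest adjusted p-value 0.436), where it called 0.545% of all probes in the liver, 0.00783% in the cortex and 0% in the others. For Egf its adjusted p-value was 0.847 in the spleen (0.831 without 131I 12:00 replicate 1) and 1 in the lungs (0.97 without saline 9:00 replicate 4).

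Relatives in these tissues were read from the same lists. In the medulla at 12:00, 2 of 10 tested relatives were regulated down with 131I and 0 up, where 4.25% of all tested probes were regulated in either direction. These were the mucin Muc1 (-2.19) and the lipocalin Lcn2 (-3.53), and the WAP gene Slpi (-2.39, adjusted p = 0.0834, limma) and the mucin Muc20 (-2.16, adjusted p = 0.0143, limma) did not pass. The mean level of the 10 relatives was 7.15 to 7.39 with 131I and 8.21 to 8.59 with saline at 12:00. This mean includes Lcn2, Slpi, Muc1 and Muc20, whereas the median of the 10 differences was -0.38 against -0.02 over all tested probes. Of 11 tested genes of the EGF family at this time, Hbegf was down (-0.70) and the feedback inhibitor Errfi1 up (0.75), while Egf was at 0.11. In the cortex the membrane-bound carbonic anhydrase Car4, a relative of Car6, was up at 12:00 with 131I (1.45). Among the saline groups of the cortex, Car4 was lower at 12:00 than at 9:00 (-1.84) and higher at 15:00 than at 12:00 (1.81). All of these Car4 differences share the saline 12:00 group, so that they are not separate results. In the liver the EGF family ligand Nrg4 was higher with saline at 15:00 than at 9:00 (2.06) and 12:00 (1.48), and Errfi1 was higher at 15:00 than at 12:00 (1.73).

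The parts of the kidney were compared among saline replicates, 10 of the cortex and 9 of the medulla, normalized together. Egf was at 13.50 ± 0.22 in the cortex (12.92 to 13.71) and 13.45 ± 0.21 in the medulla (12.94 to 13.64), a difference of 0.04 with a 95% CI of -0.14 to 0.22 (adjusted p = 0.772, limma). The interval did not reach a fold-change of 1.5. Wfdc2 was lower in the cortex on both probes, with differences of -0.21 (95% CI -0.36 to -0.07, adjusted p = 0.0232, limma) and -0.34 (-0.56 to -0.12, adjusted p = 0.0180, limma), which passed neither threshold. None of the 3 probes was thus called (2 at an unadjusted p-value under 0.05), where 11.9% of all tested probes were. Both parts come from the same mice, which the fit did not use.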

How the data were processed

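RNA of 6 tissues was hybridised to 136 arrays of 130 replicates. The non-normalized signal intensity of each probe and its detection p-value against negative control beads were deposited by the authors without normalization between arrays. The normalized intensity deposited by the authors was quantile normalized in BASE, and their call of a regulated transcript needed a 1.5-fold change and an adjusted p-value under 0.01. RNA had passed a minimum RNA integrity value.

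Here the deposited intensities were background-corrected from the detection p-values by normexp (limma's nec, with an offset of 16). Each tissue was then quantile normalized by itself on the log2 scale. Repeat arrays were merged with the replicate they repeat. R 4.3.3 was used with limma 3.58.1 and data.table (version 1.17.8). Within a tissue, limma was fitted to all 6 groups over the probes that 3 or more arrays detected at a p-value under 0.01 (eBayes with trend, Benjamini-Hochberg over all tested probes), at the thresholds of the authors. Kidney cortex and medulla were normalized together and compared with the contrast averaged over injection times, and for levels across tissues all arrays were normalized together. A fold-change against a group in the background on all its arrays is a bound from the lowest signal above background. Groups follow the sample labels. The number of arrays limits the precision. The annotation of the array held a single gene symbol for 23978 probes and none for 1719.

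The members and the lists were chosen with earlier results of these data known. Named in the text are all members, the genes of each list with the largest differences and regulated genes, and the 3 genes most like each member. The kidney tubule list and the setting without replicates with muscle genes were added after the data had been seen. Alternatives were the deposited normalized intensities, raw signals without correction, scaling to the median, all probes unfiltered, fits limited to the groups compared, other uses of the repeat arrays, a block for the replicate number, and leaving out replicates singly. Within a tissue and injection time, treated and saline replicates of the same number mostly did not deviate together (median r 0.006, from -0.63 to 0.45). Such replicates come from different mice, so this cannot show which samples share a mouse. Whether a number marks the same mouse across tissues was not tested. The files name no slides, and a slide effect was not analysed. Scripts were tested on simulated data. Promoters were those of RefSeq (GRCm38.p6), and motifs were matched exactly. Figures were drawn with Python 3.11.15, pandas 2.3.3 and matplotlib 3.10.9.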

Additional observations from a re-analysis of the deposited data

Results flagged for a closer look

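Of 85 combinations of a probe and a group of 4 replicates, 10 had a highest or lowest replicate far from the others by Dixon's criterion, where chance gives about 1 in 20. The 10 came from 7 replicates of 6 groups, and those of the same array are not independent. Levels are on the scale of each tissue. In the thyroid samples Egf was at 14.25 in saline 9:00 replicate 3 (others 12.16 to 12.43). Wfdc2 in 131I 9:00 replicate 2 was at 9.40 on the first probe (others 4.33 to 4.45) and at 5.97 on the second (others 4.33 to 4.47). Mup5 on the second probe was low at 14.14 in saline 9:00 replicate 2 (others 14.35 to 14.38).

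In spleen 131I 12:00 replicate 1, Egf was at 13.30 (others 5.40 to 5.47) and Wfdc2 at 14.26 (others 4.31 to 4.46) and 10.95 (others 4.44 to 4.51). In lungs saline 9:00 replicate 4, Egf was at 12.16 (others 4.55 to 4.79). In liver 131I 9:00 replicate 3, Egf was at 5.75 (others 4.75 to 4.86) and the only one above background. In medulla 131I 9:00 replicate 3, Wfdc2 on the first probe was low at 14.07 (others 14.17 to 14.18).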

How the results depend on the processing

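The count of 12 regulated probes in the thyroid at 9:00 was 12 with the deposited normalized intensities, with uncorrected signals, when scaled to the median, when only the compared groups were fitted and with repeat arrays left out or counted, and 11 without a filter. With the replicate number as a block it was 11. It was 0 without the replicates with muscle genes above background, a setting chosen after seeing the data that leaves 1 131I replicate at 9:00. With 1 of 21 replicates left out at a time it ranged from 0 to 12: 7, 2, 0 and 0 without 131I 9:00 replicates 1 to 4, 1, 2, 0 and 1 without saline 9:00 replicates 1 to 4, and 11 to 12 without a replicate of another group. In the 8 former fits the log2 differences ranged from -10.27 to -3.92. These thyroid values chose the genes, the probes rise and fall together and the fits share replicates. Nothing is therefore read from the direction. The counts at 12:00 and 15:00, in the other tissues, for the F test and between kidney parts were 0 under each alternative run, each replicate left out included (0 to 0), and the replicate block changed none of these. Of 5 tissue orders 4 were kept under median scaling, where cortex and medulla changed places for Egf, and 5 with the deposited normalized intensities. No regulated value changed direction, but 57 of 159 log2 differences, none of them regulated, changed sign under at least 1 alternative. Among the 36 thyroid differences between 131I and saline this was 1, the second Wfdc2 probe at 12:00 (0.88, from -0.25 to 1.65). With few arrays in a group, small differences between groups could not be told from the spread between replicates.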
